A study of Homo sapiens with 4 samples.

Results

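Wide regions are the stretches of 2 to under 10 kb in a list of open chromatin regions, and 2880 of the 196083 autosomal regions in the list had such a width. They were chosen by width alone, the end minus the start of each distinct region, so their width is a description and no test was made on it. The list came from ATAC-seq of T47D-MTVL cells. These derive from T47D, a luminal breast cancer line, and carry a single integrated copy of an MMTV-driven luciferase reporter. The cells of 2 samples expressed an shRNA against multiple variants of linker histone H1 (multiH1sh) and those of 2 control samples a random shRNA (RDsh). The labels do not say whether the 2 samples of a group were separate cultures. The study asked how losing several H1 variants bears on DNA accessibility. A single list, whose track line names 225sh as differential to RDsh, was available for the 4 samples. That 225sh means the multiH1 knock-down is an assumption made from this name. Values per sample are not given in the list, so nothing below is a comparison of knock-down with control. No spread between replicates can be given either. A common background of 2.01 reads fits the summits of 400 reads or fewer, so no control signal that varies by place shows there. Whether the regions differ from control was not tested. All positions are hg19, counted from 1.

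In ATAC-seq the Tn5 transposase inserts adapters where DNA is not shielded by nucleosomes or other proteins, and a peak caller joins neighbouring stretches of raised read density into regions. Within a region the caller sets which local heights of the signal count as summits, and the list has a line for each summit. Promoters and enhancers usually give narrow regions, because only a short nucleosome-free stretch is cut. Broad regions form where raised read density runs on with few breaks. Linker histone H1 binds the nucleosome where DNA enters and leaves it, and is known to favour compact chromatin and to set the distance between nucleosomes.

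Wide regions were few, but long and rich in summits. They made up 1.47% of autosomal regions, 12.9% of the covered length (9.35 of 72.4 Mb) and 12.7% of the summits (46847 of 368508). Regions of under 500 bp, called short regions here, made up 82.5% of regions, 47.1% of the covered length and 51.8% of the summits. The median wide region was 2728 bp long, against 178 bp for the short ones. Most members lay near the lower limit, with 1714 of 2 to under 3 kb, 851 of 3 to under 5 kb and 315 of 5 to under 10 kb. Above them stood 79 regions of 10 kb or more.

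The limits of width did not fall at a break in the list. The 404 regions of 1900 to under 2000 bp had a median of 10 summits, and the 245 regions of 2000 to under 2100 bp had 11. Their median highest pileups, the number of reads over the strongest summit, were 29 and 31 reads. At the upper limit, 14 regions of 9000 to under 10000 bp had a median of 53.5 summits, and 22 regions of 10000 to under 11000 bp had 56. The narrowest members were 3 regions of 2000 bp on chromosomes 17, 6 and 9, with 8, 3 and 13 summits. The next narrowest, both of 2001 bp, lay on chromosomes 12 and 14. Just under the limit stood 2 regions of 1999 bp, on chromosome 3 (160472424 to 160474422, 13 summits) and chromosome 4 (2340864 to 2342862, 11 summits). The other 3 of the nearest 5 were of 1997 bp (chromosomes 11 and 5) and 1998 bp (chromosome 17). The widest members were of 9994 bp on chromosome 9, of 9868 and 9433 bp on chromosome 8, of 9766 bp on chromosome 17 and of 9583 bp on chromosome 1. The first beyond the limit were of 10016 bp on chromosome 7, 10045 bp on chromosome 5, 10104 bp on chromosome 8, 10108 bp on chromosome 16 and 10155 bp on chromosome 22.

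A typical wide region was a row of many modest summits. The region on chromosome 5 from 139780195 to 139782438 (2244 bp) had the median summit density of all members, 5.35 summits per kb. Its 12 summits had, in order along the DNA, pileups of 12, 26, 21, 34, 15, 27, 38, 16, 14, 19, 16 and 21 reads. The distances between them ran from 136 to 228 bp. No summit of this region stood far above the others, and the strongest, at position 1141 of the region, had 38 reads and a listed fold of 12.97, the ratio of pileup to background with 1 read added to each. The member with the most summits, on chromosome 9 from 140055152 to 140065145, repeated this pattern over 9994 bp. Its 61 summits had between 13 and 50 reads (median 27), and were spaced by 55 to 374 bp with a median of 144 bp.

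**Figure D1:**
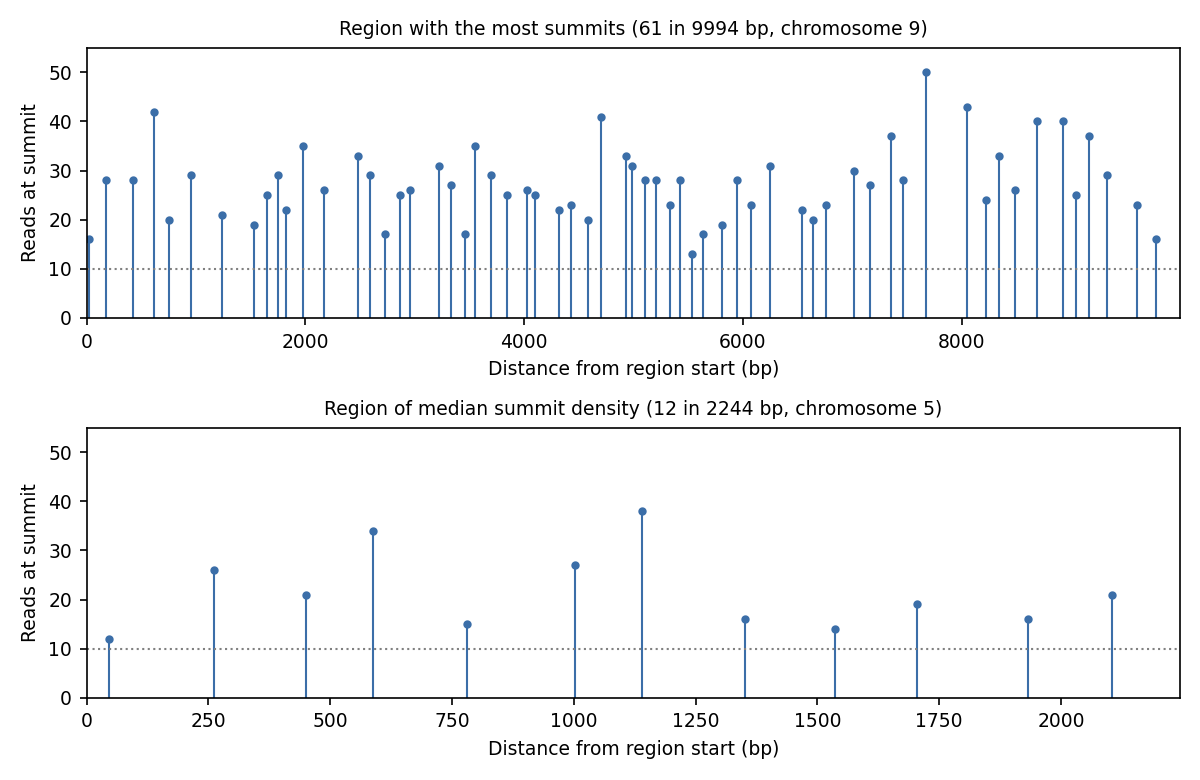
Reads at each summit (vertical axis) against the distance from the region's start in bp (horizontal axis) for the wide region with the most summits and for the member of 2 to under 3 kb nearest to the median summit density. Each line with a dot is a summit and the dotted line marks 10 reads, the lowest pileup in the list. The upper region holds 61 summits of 13 to 50 reads and the lower 12 summits of 12 to 38 reads.

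The number of summits per wide region had a median of 14 (quartiles 11 and 19), and ran from 1 to 61. It rose with width, with medians of 12, 20 and 33 in regions of 2 to under 3 kb, 3 to under 5 kb and 5 to under 10 kb. Across the 2880 regions Pearson's r between width and number of summits was 0.82 and Spearman's rho 0.75. These are descriptions, since both measures come from the same calls. A straight line through them had a slope of 5.18 summits per kb. Summits per kb were alike in the 3 width groups, with medians of 5.24, 5.47 and 5.47. The pooled density of 5.01 summits per kb lay between that of regions of 1 to under 2 kb (4.52) and that of short regions (5.60). The value of short regions follows mainly from their width, since 84.9% of them had 1 summit, whereas 36 wide regions (1.25%) did.

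The 10 members with the most summits had between 53 and 61, and all 10 lay in the terminal 5 Mb of a long arm or of the short arm of chromosome 7. Chromosome 8 held 4 of them, at 143616530 to 143626397 (60 summits), 143697660 to 143706670 (57), 145553053 to 145562318 (55) and 145723480 to 145732912 (54). Chromosome 9 held 3, with 56 summits at 139513966 to 139522509 and 55 at 137270441 to 137279175 beside the region of 61. Chromosome 17 held 2, at 79161338 to 79171103 (56 summits) and 79130687 to 79139342 (53). The remaining region, on chromosome 7 from 2558175 to 2567564, had 57. Their lowest summits had 10 to 13 reads and their highest 36 to 56, and no summit of the 10 regions exceeded 56 reads. The median spacing within them ran from 139 to 157 bp.

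Away from chromosome ends and centromeres the member with the most summits was on chromosome 10 from 46963577 to 46972385 (52 summits, median pileup 35). Next came 2 regions on chromosome 1, from 228087393 to 228095902 (50) and from 228462513 to 228470497 (49). Chromosome 17 from 18919685 to 18927934 and chromosome 3 from 184294437 to 184303120 had 47 each. Within 2 Mb of a centromere gap, the stretch without listed regions that spans a centromere, the first was on chromosome 12 from 38545695 to 38554209 with 41 summits and a median pileup of 24. The next was on chromosome 18 from 18510913 to 18520342, with 39 summits and a median pileup of 354 reads. The third, on chromosome 21 from 9875650 to 9882511, had 36 summits at a median of 35 reads. The other 2 of the first 5, with 34 summits each, lay on chromosome 1 from 142535467 to 142542834 (median pileup 216.5) and on chromosome 19 from 27731786 to 27740643 (781.5). Members with many summits beside a gap therefore differed in median pileup from 24 to 781.5 reads, against 18 to 35 in the 5 elsewhere.

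Not all wide regions were rows of close summits. Of the 2880 members, 256 (8.89%) had fewer than 2.5 summits per kb and are called sparse here. This limit was set after the values were seen. In the distribution of summit density, bins of 0.5 per kb held 36 to 62 regions each up to 3.5 per kb, then rose to 647 between 5.5 and 6. The low end was thus a long flat tail and not a separate mode. The sparse members were about as wide as the rest (medians 2648.5 and 2737 bp), but had a median of 4 summits against 15. Their summits were not lower. The median over regions of the median pileup was 29 reads in the sparse members and 20 in the rest.

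The sparse members also lay elsewhere. Within 2 Mb of a centromere gap lay 80 of the 256 (31.3%, 95% Wilson interval 25.9 to 37.2%), against 109 of the other 2624 (4.15%, 3.46 to 4.99%). The terminal 5 Mb of chromosomes held 34.0% of them (28.5 to 39.99%) and 57.1% of the rest (55.2 to 59.0%). Their 1 Mb windows had a median of 75 short regions, against 321 for the rest. Within 10 kb they had a median of 2 short regions, against 8. All intervals here cover counting error only, since neighbouring regions are not independent and PCR copies could not be told from separate molecules.

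The share of sparse members was largest on chromosomes with few wide regions. On chromosome 22 they were 8 of 11 members, on chromosome 2 they were 24 of 37 and on chromosome 13 they were 11 of 21. On chromosome 9 they were 7 of 329 (2.13%) and on chromosome 17 they were 9 of 396 (2.27%). The lowest density was that of chromosome 6 from 61900824 to 61905279, where 4456 bp held 1 summit of 35 reads. On chromosome 2, 3 such regions lay between 89833547 and 89844962, each with 1 summit, of 17, 16 and 25 reads. On chromosome 11, 3 members between 114479929 and 114496183 had 3, 5 and 1 summits in 4224, 5233 and 2551 bp. On chromosome 12, 5 members between 37999651 and 38047748 had 1 to 3 summits each, with pileups from 15 to 33 reads. These 2 rows were picked after their values were seen.

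**Figure D2:**
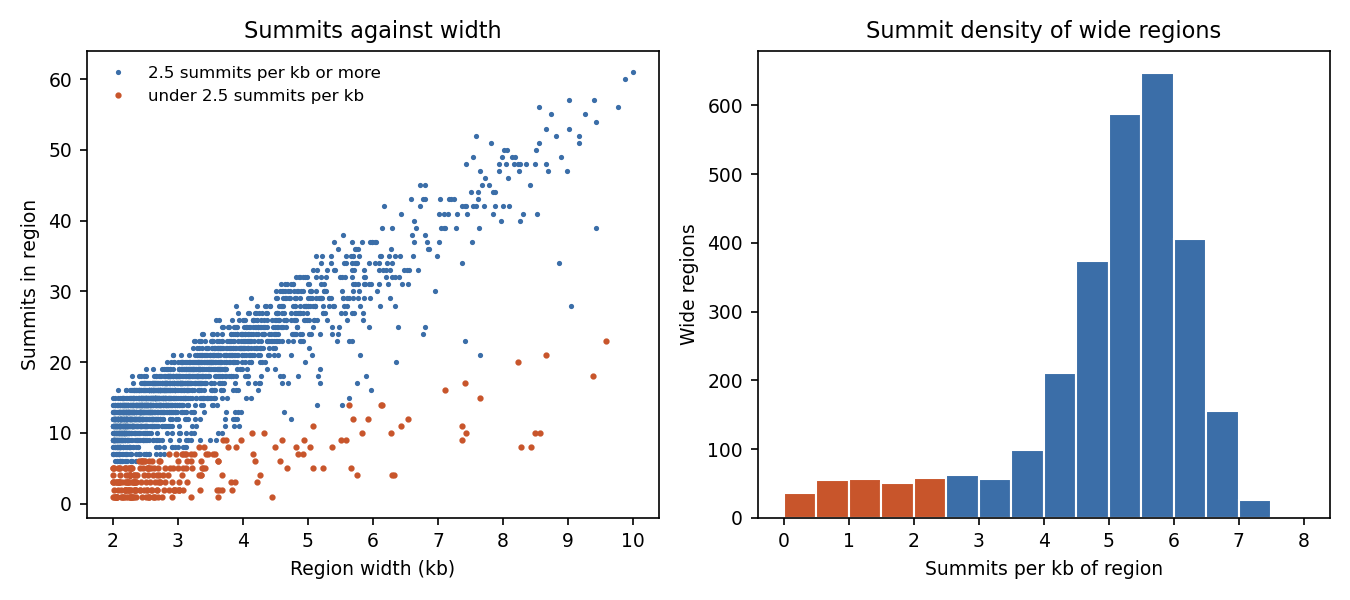
Left, the number of summits (vertical axis) against the width in kb (horizontal axis) of each of the 2880 wide regions. Right, the number of wide regions in bins of 0.5 summits per kb. Orange marks the 256 members under 2.5 summits per kb, which lie below the main band at every width.

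Spacing was the measure that varied least between the width classes above 500 bp. The 43967 distances between neighbouring summits of a wide region had a median of 163 bp (95% interval of the median 162 to 164, counting error only) and quartiles of 119 and 224 bp. The most filled bin of 10 bp was 110 to 119 bp. Of all distances 79.3% lay from 80 to 259 bp, 10.2% were of 300 bp or more and 1.69% of 500 bp or more. The shortest was 10 bp and 0.992% were under 60 bp. The longest was 2955 bp. Regions of 1 to under 2 kb had a median of 164 bp and regions of 500 to under 1000 bp a median of 159 bp. In short regions the median was 132 bp, but there a region's width caps the distance, and only 24457 of 161820 had more than 1 summit. Regions of 10 kb or more had a median of 177 bp and a heavier tail, with 6.35% of distances at 500 bp or more.

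Distances between neighbouring summits varied within a wide region. The size of this variation was not set against that of summits placed at random. In the 2698 members with 6 summits or more, the coefficient of variation of the distances within a region had a median of 0.44 (quartiles 0.38 and 0.52), and the median longest distance was 359 bp. The medians of these regions were narrower in range, from 130 bp at the 5th percentile to 260 bp at the 95th.

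All pairs of summits within a region, neighbours or not, were set against an expected number of pairs at each distance. This is the number for as many summits placed at random, with the same chance at every position of the region. A value near 1 thus means random and not regular placement at that distance. At 41 to 60 bp the observed pairs were 0.086 times that number, and at 61 to 80 bp 0.33 times. The caller's rule for listing close summits is not given, and its part in these low values was not tested. The value was highest at 101 to 120 bp, at 1.19. It was 1.05 at 181 to 200 bp and stayed between 1.01 and 1.099 from there to 1000 bp. After the first height no repeated rise at multiples of a fixed distance was seen in bins of 20 bp. Regular nucleosome arrays are known to give such repeats, but the list holds summits of read density and not nucleosome positions.

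**Figure D3:**
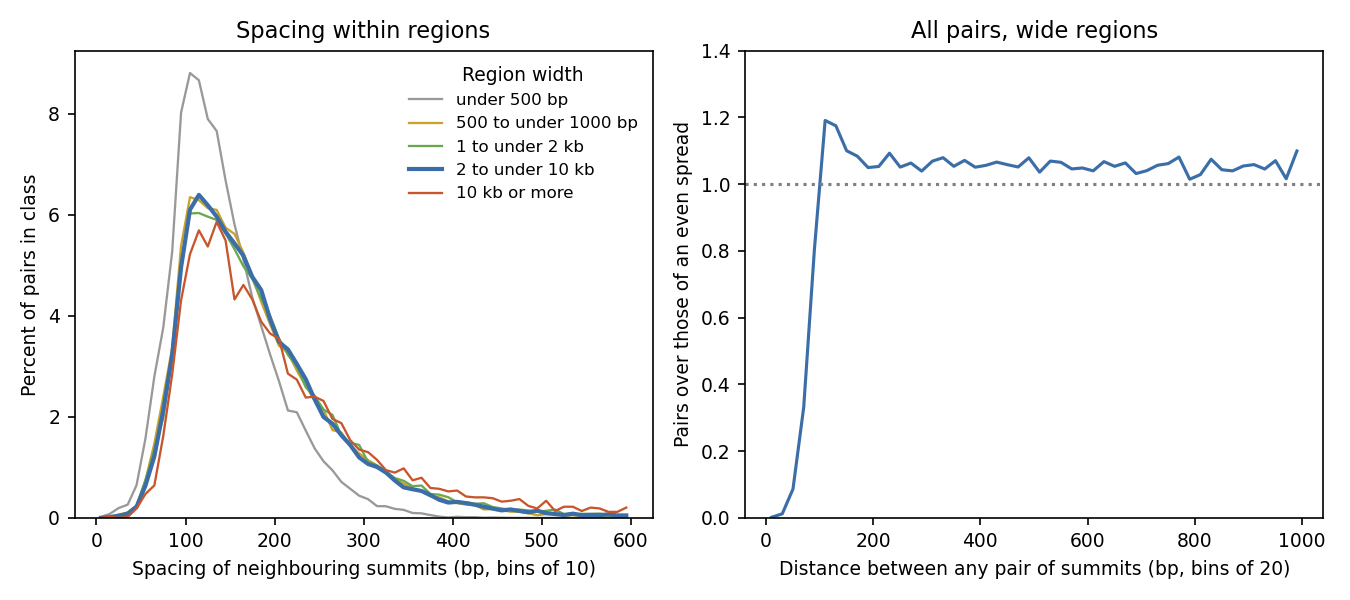
Left, the percent of neighbouring summit pairs (vertical axis) by their distance in bins of 10 bp (horizontal axis) for 5 classes of region width. Right, all pairs of summits within wide regions over the number from random placement (called an even spread on the axis), in bins of 20 bp. The curve of wide regions nearly covers those of 500 bp to under 2 kb. The right curve peaks at 101 to 120 bp, falls to 1.05 at 181 to 200 bp and from there stays between 1.01 and 1.099.

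Within wide regions, spacing differed with pileup and place more than between the 3 width groups, which had medians of 164, 162 and 163 bp. Neighbouring summits that both had under 20 reads were a median of 148 bp apart (146 to 150). Pairs with 1 summit of 20 reads or more had 167 bp (166 to 169), and pairs both of 20 to under 50 reads 164 bp (162 to 165). The 1161 pairs both of 50 reads or more had 199 bp (193 to 211). The rise with pileup was thus not steady, and pileup and place were not separated. Beside centromere gaps the median was 194 bp (188 to 200), against 160 bp (159 to 161) in the terminal 5 Mb and 165 bp (163 to 167) elsewhere. Of the 189 members beside gaps 80 were sparse, and their part in the 194 bp was not separated. Chromosomes 9, 4, 7, 16 and 17 had medians from 157 to 160 bp. Chromosome 2 had 211 bp and chromosome 22 had 256.5 bp, the latter over only 48 pairs. These are also the chromosomes with the largest shares of sparse members. The sparse members alone had a median of 363 bp and the rest 161 bp, which follows from how they were split.

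The first summit lay a median of 99 bp after the start of a wide region and the last summit 130 bp before its end. The stretch at the end was the longer in 60.03% of members. The same order was seen in short regions with 1 summit, with 47 and 107 bp and a longer end in 69.9%. Regions of 1 to under 2 kb had 113 and 145 bp.

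Pileups within wide regions were higher than in short ones but mostly moderate. The median summit of a wide region had 21 reads, against 14 in a short region, over a common background of 2.01 reads. At 20 reads or more stood 57.0% of summits in wide regions and 10.9% of those in short ones. The strongest summit of a wide region had a median of 35 reads (quartiles 29 and 43), and in 23 members it had under 20. It rose with width, from 32 reads in members of 2 to under 3 kb to 37 in those of 3 to under 5 kb and 43 in those of 5 to under 10 kb. Wider regions hold more summits from which the highest is taken, so part of this order follows from their number. The weakest summit had a median of 12 reads in each of the 3 groups, and in 563 members (19.5%) it was at the list's minimum of 10.

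The strongest summit of a member was a median of 2.85 times the weakest (quartiles 2.38 and 3.50), over the 2844 members with more than 1 summit. In 62.4% of all 2880 members, among them the 36 with 1 summit, the strongest lay in the middle 50% of the region. The share of all summits in that middle part was not computed. In members with 5 summits or more, each 10% of the region's length held 9.16 to 10.2% of the summits. Along the region the profile was shallow. Over the 2736 members with 5 summits or more, each cut into 10 equal parts, summits in the first and last parts had medians of 0.90 and 0.91 of their region's median pileup. In the parts between, the medians ran from 1.00 to 1.05. The median profile was thus nearly flat, with lower edges.

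A small set departed from this, with 107 members at 100 reads or more and 11 at 1000 or more. The highest pileup, 245280 reads, was in the region on chromosome 1 from 564460 to 570307, where even the weakest of 27 summits had 48650 reads. Chromosome 5 held 4 of the first 10, at 134258619 to 134264215 (112473 reads), 79945840 to 79948188 (110793), 99381706 to 99390749 (16130) and 93903322 to 93906571 (15711). Chromosome 11 from 10529433 to 10531882 reached 75801 reads and chromosome 17 from 22020008 to 22024639 reached 33958. The latter went down to 37 reads at its weakest summit, a ratio of 918. The last of the first 10 were chromosome 18 from 105589 to 112385 (4051 reads), chromosome 21 from 9825438 to 9827803 (2286) and chromosome 6 from 58773623 to 58780156 (1708). The region on chromosome 1 is known to be nuclear DNA of mitochondrial origin. Whether others of the 10 share this origin was not examined, so their pileups cannot be read as a degree of openness. Of the 10 regions 3 lay beside a centromere gap and 2 in the terminal 5 Mb. Their median spacings ran from 181.5 to 265 bp, longer than the 163 bp of all members.

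Wide regions were spread over the chromosomes far less evenly than short ones. Chromosome 17 held 396 (13.8%), chromosome 16 held 359 (12.5%), chromosome 9 held 329 (11.4%) and chromosome 8 held 242 (8.40%). Together these 4 chromosomes had 46.04% of wide and 23.3% of short regions. Per Mb of listed span, wide regions ran from 0.103 on chromosome 18 (95% Poisson interval 0.0443 to 0.202) to 4.88 on chromosome 17 (4.41 to 5.38), a 47.6-fold range. Short regions ran from 14.3 to 173.7 per Mb on the same chromosomes, a 12.2-fold range. The lower value for wide regions rests on 8 members. Without the sparse members the range was 89.2-fold, from chromosome 2 to 17, and from 3000 bp of width it was 73.1-fold, from chromosome 18 to 16 (95% interval 19.9 to 609).

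Relative to the short regions of the same chromosome, the order changed. There were 17.8 wide regions per 1000 short ones over all autosomes. Chromosome 9 had 41.6 (37.2 to 46.3), chromosome 16 had 39.7 (35.7 to 44.1), chromosome 8 had 36.4 (32.0 to 41.3) and chromosome 17 had 28.1 (25.4 to 31.0). Chromosomes 9, 16 and 8 did not differ beyond their counting intervals. At the other end stood chromosome 22 with 2.16 (1.08 to 3.86) and chromosome 19 with 3.19 (2.10 to 4.65). Both are known as gene-rich, and both had dense short regions, at 145.1 and 143.6 per Mb, next after the 173.7 of chromosome 17. Chromosome 22 nevertheless had 11 wide regions and chromosome 19 had 27. Chromosome 6 had 5.51, chromosome 15 had 6.12, chromosome 2 had 6.72 and chromosome 18 had 7.19, with intervals that overlap.

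The other chromosomes lay between these groups. Chromosome 4 had 26.3 wide regions per 1000 short ones and chromosome 7 had 23.8, both with intervals above the value of all autosomes. Chromosome 12 had 19.5, chromosomes 5 and 14 had 18.3 each, and chromosome 21 had 14.9, with intervals that include it. Chromosome 3, at 15.4 (13.2 to 17.9), did so narrowly. Chromosome 10 had 12.2, chromosome 20 had 11.8, chromosome 13 had 11.4, chromosome 11 had 10.03 and chromosome 1 had 9.85, all with intervals below it. All these intervals count members as independent, although 61.9% of members had another within 10 kb. They therefore understate the spread and do not settle the order of chromosomes. Chromosome 1 had the most short regions of all (15437), but 152 wide ones. Over the 22 chromosomes Pearson's r between wide and short regions per Mb was 0.53 and Spearman's rho 0.46. The points share the library, its depth and the part of each chromosome where reads can be placed. The copy number of chromosomes in these cells was not measured here.

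**Figure D4:**
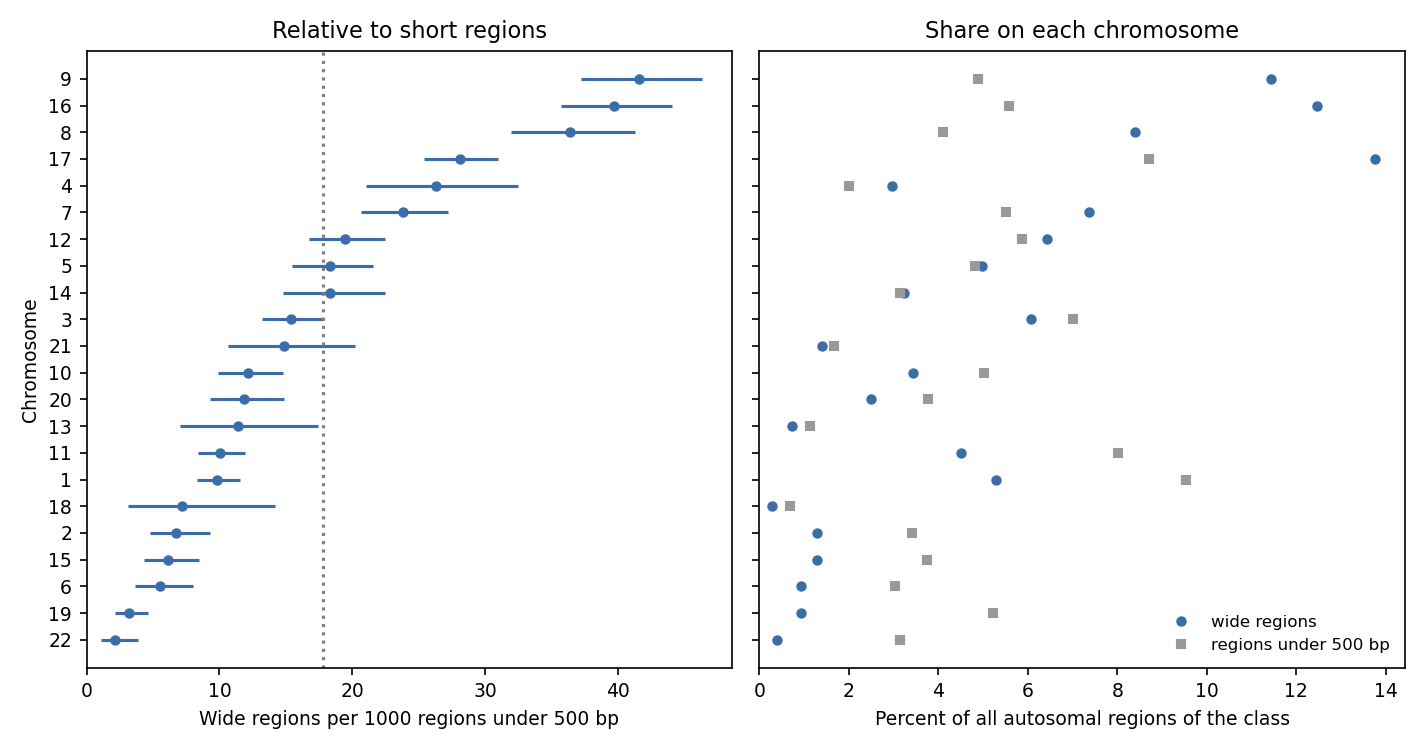
Left, wide regions per 1000 regions under 500 bp on each autosome, with 95% Poisson intervals of the wide count and the value of all autosomes (17.8) as a dotted line. Right, the percent of all autosomal wide regions (circles) and of all short regions (squares) on each chromosome. Chromosomes 9, 16, 8 and 17 lie far to the right of the dotted line and chromosomes 22 and 19 are lowest.

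Arms of 1 chromosome often differed. Of the arms of over 2 Mb, 5p stood first with 70.5 wide regions per 1000 short ones (57.8 to 85.2), and its long arm had 5.73 (4.01 to 7.93). The long arm of chromosome 8 had 44.9 and its short arm 7.86. Chromosome 9 had 327 of its 329 members on the long arm and chromosome 4 had 80 of 85 on the short arm. On chromosome 7 the short arm stood at 33.3 and the long arm at 11.7. In contrast, the arms of chromosome 16 were alike at 38.9 and 40.5, those of chromosome 11 at 10.03 each and those of chromosome 12 at 19.8 and 19.4. Those of chromosome 19 were both low, at 3.39 and 2.94.

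In windows of 1 Mb the wide regions were concentrated in few places. Of 2733 windows, 499 (18.3%) held at least 1 wide region, whereas 2589 (94.7%) held a short one. The 41 windows with the most wide regions held 50% of them, while for short regions 265 windows were needed. The 10% of windows with the most short regions (273 windows, each with 190 or more) held 51.0% of short regions and 80.6% of wide ones (95% Wilson interval 79.1 to 82.0%). The fullest window was on chromosome 17 from 79 to 80 Mb, with 64 wide regions that covered 240.3 kb or 24.03% of it. Next came chromosome 5 from 1 to 2 Mb (63), chromosome 16 from 88 to 89 Mb (62), with 60 each, chromosome 8 from 143 to 144 Mb and 9q from 139 to 140 Mb. The first Mb of chromosome 16 and the window from 144 to 145 Mb of chromosome 8 had 53 each. Chromosome 16 from 85 to 86 Mb had 52. The second Mb of chromosome 7 (1 to 2 Mb) had 50, and the window of 145 to 146 Mb of chromosome 8 had 48. In these 10 windows wide regions covered 16.6 to 24.7% of the DNA, and there were 286 to 419 short regions beside them.

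Many short regions in a window did not always go with wide ones. The window with the most short regions, on chromosome 19 from 1 to 2 Mb, had 554 of them and 3 wide ones. On chromosome 11 the windows from 2 to 3 Mb and from 1 to 2 Mb had 539 and 521 short regions and 1 and 2 wide ones. Chromosome 1 from 2 to 3 Mb had 539 and 6. Among windows without any wide region, chromosome 10 from 80 to 81 Mb had 464 short regions, chromosome 2 from 241 to 242 Mb had 453, chromosome 11 from 70 to 71 Mb had 387, chromosome 6 from 43 to 44 Mb had 354 and chromosome 19 from 18 to 19 Mb had 350. Of the 273 windows richest in short regions 56 had no wide region and 70 had 10 or more. On the other side, chromosome 7 from 61 to 62 Mb had 5 wide and 12 short regions. The window of 34 to 35 Mb on chromosome 12 had 12 and 44. Both windows hold the edge of a centromere gap.

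The pooled ratio of wide to short regions stayed low until windows were well filled. Pooled over the 1101 windows with under 10 short regions it was 9.89 per 1000. In windows with 100 to under 200 it was 6.38, and 58.8% of these 277 windows had no wide region. It was 24.9 in windows with 200 to under 300, 32.4 from 300 to under 400 and 31.3 at 400 or more. These pooled values lean on a few very full windows. The median windows of these 3 bins held 2.5, 4 and 10 wide regions, against means of 6.06, 11.2 and 14. Across the 2733 windows Pearson's r between the counts was 0.52 and Spearman's rho 0.52, given as descriptions. A stretch that is called as a wide region cannot also hold short ones, so the counts are not independent.

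**Figure D5:**
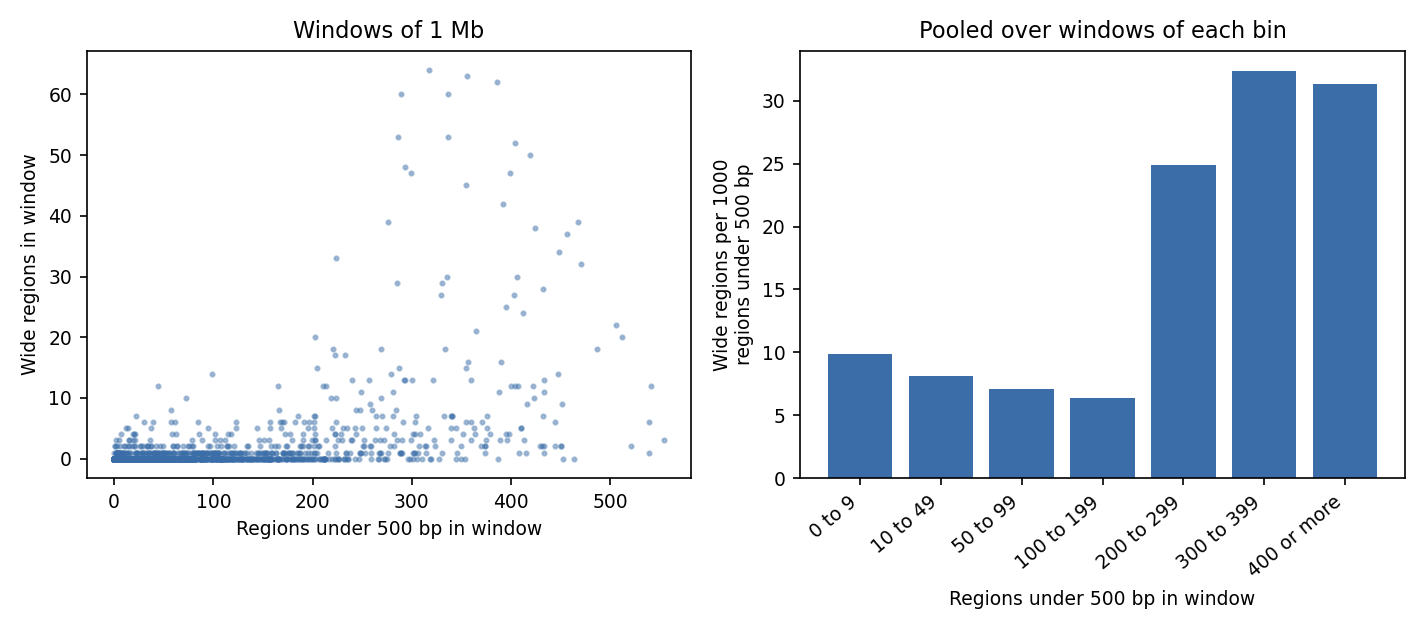
Left, wide regions (vertical axis) against regions under 500 bp (horizontal axis) in each of 2733 windows of 1 Mb. Right, wide regions per 1000 short ones, pooled over the windows of each bin of short region number, which ran from 6.38 to 9.89 in bins under 200 and from 24.9 to 32.4 above.

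Chromosome ends held most of the wide regions. The terminal 5 Mb of 39 ends, all but the short arms of the acrocentric chromosomes, made up 7.23% of the listed span without centromere gaps. There lay 1586 wide regions, or 55.1% (95% Wilson interval 53.2 to 56.9%), against 23.1% of short ones (22.9 to 23.3%). The share rose from class to class of width, with 32.5% at 500 to under 1000 bp, 39.7% at 1 to under 2 kb, 49.9% at 2 to under 3 kb, 60.9% at 3 to under 5 kb and 67.6% at 5 to under 10 kb. At 10 kb or more it was 58.2% of 79 regions.

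Single ends differed widely, and 5 of the 39 held 53.9% of the wide regions found at ends. The ends of 9q (219), 8q (195), 16q (171) and 17q (138) came first, followed by the end of 16p (132). Per 1000 short regions of the same end, the end of 8q had 123.3, that of 5p had 119.9 and that of 9q had 113.2. Other ends rich in short regions had few wide ones. The short-arm end of chromosome 19 had 2101 short and 14 wide regions, that of chromosome 11 had 1561 and 8, and the end of 2q had 1050 and 2. No wide region lay at the short-arm ends of chromosomes 3, 9 and 12 or at the long-arm end of chromosome 15, which had 473 short ones. In 25 of the 39 ends the share of the chromosome's wide regions exceeded its share of short ones.

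Beside centromere gaps lay 189 wide regions, or 6.56% (5.71 to 7.53%), against 2.64% of short ones (2.56 to 2.71%). These flanks made up 2.96% of the listed span without the gaps. Here too the share was larger in wider classes, from 5.25% at 2 to under 3 kb through 6.82% to 13.02% at 5 to under 10 kb, and 32.9% at 10 kb or more. Without the sparse members the share was 4.15%. Chromosome 10 had 26 members there, chromosome 8 had 24, chromosome 16 had 19, chromosome 12 had 18 and chromosomes 2 and 21 had 16 each. On chromosome 2 these were 43.2% of the members, and on chromosome 21 they were 16 of 40. Chromosomes 5 and 13 had none.

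Wide regions lay close to each other. The median distance from a member to the nearest other member was 4705 bp (quartiles 911.75 and 27500.5), and 755 (26.2%) had another within 1 kb. From a short region to the nearest wide one the median distance was 334594 bp. Of all members, 130 (4.51%) had no other within 1 Mb. Joining members less than 10 kb apart gave 1613 runs, of which 1096 were single regions and 95 had 5 or more. The longest run, of 21 members, covered 119887 bp on chromosome 9 from 137215758 to 137335644, and 70.3% of it was wide region. A run of 20 lay on chromosome 5 from 1179974 to 1296471 and another of 17 from 1004024 to 1112565. A run of 18 on chromosome 8 from 143523782 to 143626397 was filled to 81.7% and held 474 summits. Chromosome 16 from 677341 to 781863 had a run of 17.

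The nearest listed region of any width was a median of 148 bp away from a wide region and 410 bp from a short one. No gap between autosomal listed regions was under 97 bp. The number of short regions within 10 kb had the same median of 7 for wide and for short regions, although the DNA around the wide ones was partly taken up by other wide regions. Within 50 kb the medians were 34 and 29.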

How the data were processed

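ATAC-seq libraries of 2 multiH1 knock-down and 2 control samples were sequenced, and 1 peak list was analysed. The submitters' processing notes name Bowtie 1.1.2, the build hg19 and the peak caller MACS2. Its version and options, duplicate removal and pooling are not given in the sources. In the deposited list the fold is a ratio that fits (pileup + 1) / (background + 1) at the summit, the authors give p-values and q-values as −log10, and the deposited score is another form of the p-value. These values are the authors'.

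Lines with the same start and end were joined into a region. The fold and p-value of all 182 distinct pairs that could be solved with a Poisson tail gave 1 background of 2.01 reads. With it the folds gave whole pileups (tolerance 0.02 reads) in 100% of the 370883 summits of 400 reads or fewer. The solver, tested on 500 simulated lines, recovered 100%. Total reads per sample are not given, so this background is the only measure of depth. Region numbers and summit letters had no holes, with letters checked in regions of 26 summits or fewer.

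Regions were assigned to windows, ends and flanks by their midpoint. The centromere gap was the longest stretch without listed regions within 2 Mb of the known centromere. Windows wholly in it were left out. Intervals are Wilson for shares, exact Poisson for counts and order-statistic for medians, at 95%. No test was run, because width and all other columns come from the same calls and no value per sample is given. Named items were, by rule, the 10 members with the most summits and the 10 with the highest pileup, the first 5 by summits in each of 3 placements, the 5 nearest to each width limit on either side, and the 10 fullest windows. Other items were named after their values were seen. The members, classes and measures were chosen with earlier results of these data known. No genome or annotation of hg19 was used, so genes, sequences and GC content were not analysed here. Python 3.11.15, numpy 2.4.6, scipy 1.17.1, pandas 2.3.3 and matplotlib 3.10.9 were used.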

Additional observations from a re-analysis of the deposited data

How the results depend on the processing

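Alternatives without the sparse members, without regions of 1000 reads or more, without chromosomes 8, 9, 16 and 17, ranking windows by wide regions, and leaving flanks out of the chromosome range were added after seeing the data. The 2880 wide regions became 1166 with width from 3000 bp and 5515 with width from 1500 bp, by construction. The median of 14 summits was 8 for summits of 20 reads or more and 21 from 3000 bp. The median spacing of 163 bp was 166 as the median of region medians, 213 for summits of 20 reads or more and 161 without the sparse members. The 47.6-fold range between chromosomes was 19.3 per 1000 short regions, from chromosome 9 to 22. It was 73.1 from 3000 bp, with chromosome 16 highest in place of 17, and 89.2 without the sparse members, with chromosome 2 lowest in place of 18. The share of wide regions in the 10% of windows with the most short ones (80.6%) was 76.2% in windows of 100 kb, 84.6% over 2 Mb from a gap, 82.3% from 3000 bp, 85.5% without the sparse members and 91.7% with windows ranked by wide regions. The share at chromosome ends (55.1%) was 34.1% for the terminal 2 Mb (short regions 10.7%), 62.4% for 10 Mb (34.1%), 62.7% from 3000 bp, 57.1% without the sparse members and 46.7% without chromosomes 8, 9, 16 and 17 (21.9%). The share beside gaps (6.56%) was 4.24% within 1 Mb (1.29%), 8.49% from 3000 bp, 4.15% without the sparse members and 7.98% without those 4 chromosomes (2.17%). The distance to the nearest wide region (4705 bp) was 4124.5 bp without the sparse members. The 7 short regions nearby were 34 within 50 kb and 8 without the sparse members. In all 17 values, the 73.1 and 89.2 among them, stayed within the interval of the reported value or, for counts, within 1.5 times it. The interval of the 47.6-fold range was wide, from 23.9 to 110.9, so lying within it does not show that the range is stable. Shifts other than those by construction have a cause that was not tested. Merging regions that touch changed nothing, because no gap was under 97 bp. No paired analysis was possible because values per sample are not in the list, and so no replicate could be left out. Sequence alternatives were not run. The list starts at 10 reads, so signal below that between 2 regions is not seen, and it may split what a deeper library would join.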

Other observations

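On chromosomes X and Y, which the rule leaves out, 29 further regions had a width of 2 to under 10 kb. Chromosome X had 14 of them beside 1352 short regions. Chromosome Y had 15 beside 95 short regions. Whether the reads placed on chromosome Y came from it was not checked.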
